A study of Mus musculus with 4 samples.

Results

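Genes that mark monocyte-derived cells were examined in the resident large peritoneal macrophages (LPMs) of the mouse. The set comprised 9 names, *Ly6c2*, *Plac8*, *Chil3*, *S100a4*, *S100a6*, *S100a8*, *S100a9*, *Fn1* and *Vcan*, and a gene was taken where its symbol equalled a name in the expression table. This found 7 of the 9 among 18364 genes. *S100a8* and *S100a9*, which encode the calprotectin subunits of neutrophils and monocytes, matched under neither current nor older symbols and were not analysed here. The names were given and not chosen by a threshold on these values, and all 7 passed the filter on low values, as did every gene of the table. LPMs were sorted as F4/80+ MHCII-negative CD102+ cells from 8-week-old C57BL/6 mice, labelled either wild type (WT, 2 libraries) or Rxra-/- (Rxra-KO, 2 libraries). Per the methods of the study, *Rxra*, which encodes a nuclear receptor, carried floxed alleles that were deleted by a Cre recombinase driven from the *Lyz2* (LysM) locus, so that loss was limited to cells with *Lyz2* activity, and the comparison mice were Rxra fl/fl littermates without Cre. The labels give a double sort to 99% purity.

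Classical monocytes leave the blood, enter tissues and can become macrophages. They are known for surface LY6C, of which *Ly6c2* is a gene, for small calcium-binding S100 proteins, and for a set of secreted and matrix proteins. LPMs are largely seeded before birth and carry high F4/80, CD102 and the transcription factor GATA6, whereas small peritoneal macrophages derive from monocytes. Several of the markers are not exclusive to monocytes, and *Fn1* is known to be strongly expressed by LPMs themselves.

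Depth ranged from 629030 to 1047021 recovered reads per library, so that 1 read was worth a value of 0.993 to 1.51 on the scale of the deposited normalised read counts. *Rxra* had values of 31 and 30.9 in WT and 50.4 and 77.0 in the libraries labelled Rxra-KO, and was thus not lower where it was named as deleted (log2 fold change 0.99, limma adjusted p = 0.183). Whether these reads lie in the deleted part is not given in the sources used here, so the genotype rests on the labels, and Rxra-KO below means the libraries labelled so. Of 8 genes that describe the sorted cell, 5 were lower in Rxra-KO, namely *Emr1* (the older symbol of the F4/80 gene, -0.89), *Itgam* (-1.24), *Icam2* (CD102, -1.25), *Gata6* (-2.32) and *Lyz2* (-1.03), whereas *Timd4* (-0.80), *Csf1r* (0.36) and *Cd68* (0.22) did not pass the test. Each of the 8 was detected in both groups. The calls of *Itgam* and *Icam2* held with any 1 library left out, whereas that of *Emr1* was lost without WT replicate 1 (-0.70) or Rxra-KO replicate 2 (-0.62), that of *Gata6* without Rxra-KO replicate 1 (-1.31) and that of *Lyz2* without either WT library (-0.88 and -1.18). Only the Rxra-KO mice carried Cre at the *Lyz2* locus, and an effect of that allele on the level of *Lyz2* was not tested. These are bulk libraries, in which fewer cells of a type and less RNA per cell cannot be told apart.

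Fold changes are Rxra-KO minus WT on a log2(value + 1) scale, and a gene was called at a limma p-value under 0.05, adjusted over all genes, if its log2 fold change was also 0.6 or more in either direction. Among the markers, 1 of 7 was called, *S100a4*, which was higher in Rxra-KO. Across all genes 2.29% were called, with 1.32% of all genes higher and 0.969% lower, and a single called gene gives no result about the markers as a set. An unadjusted p under 0.05 was reached by 2 of 7 markers and by 10.1% of all genes. The values of both groups did not overlap for 2 of 7 markers, *S100a4* and *Fn1*, against 38.1% of all genes. The median log2 fold change of the 7 was 0.20, beside 0.02 over all genes. Levels differed far more between markers than between genotypes, from *Fn1*, among the 10 most abundant genes of every library, to *Plac8*, with 1 or 2 reads per library.

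**Figure D1:**
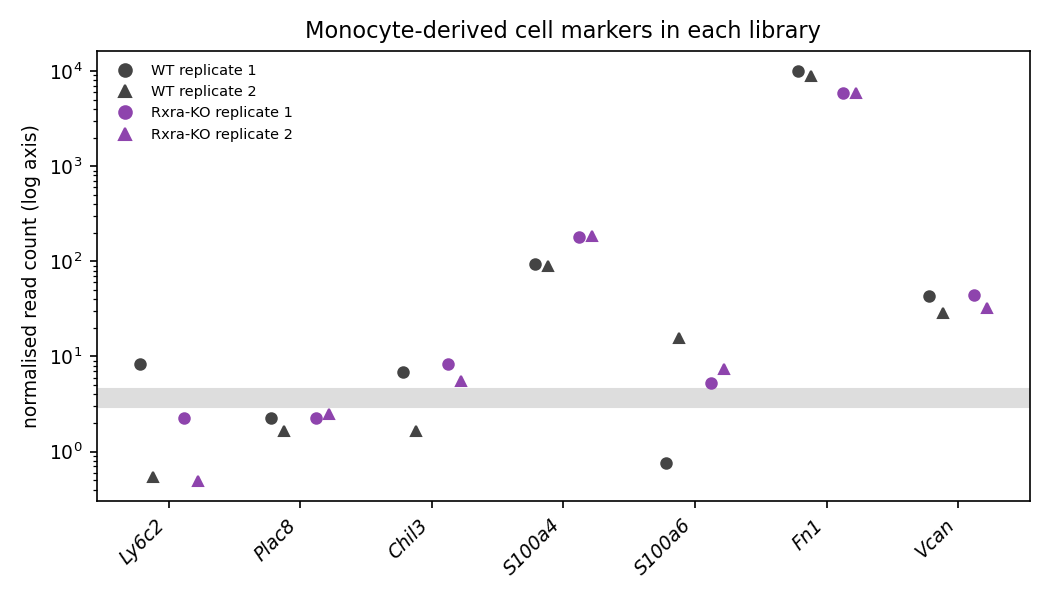
Normalised read count (log axis) of the 7 markers in each of the 4 libraries, with 1 point per library, coloured by group and shaped by replicate, and a grey band at the value of 3 reads (2.98 to 4.54). *Fn1* (means 9362.6 in WT and 5918.5 in Rxra-KO) and *S100a4* (91.3 and 182.3) have separate groups, *Vcan* overlaps between groups, and the other 4 have at most 14 reads in any library.

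The surface antigen and secreted lectin markers of classical monocytes were at or near the limit of detection in both genotypes. *Ly6c2* encodes the LY6C antigen used to define inflammatory monocytes. Read counts were 5 and 0 for the WT libraries against 1 and 0 for Rxra-KO, corresponding to values of 8.33 and 0.542 against 2.26 and 0.497. A single WT library thus held 5 of the 6 reads, and the groups overlapped. The log2 fold change was -0.78 (95% interval -2.36 to 0.80, limma adjusted p = 0.865), and the ratio of summed reads scaled to depth, Rxra-KO over WT, was 0.189 with an exact 95% binomial interval of 0.004 to 1.69, which covers counting error only. *Plac8*, a cysteine-rich protein of monocytes and granulocytes, had 1 read in each WT library and 1 and 2 reads in Rxra-KO. Both groups lay under 3 reads per library, so no fold is given.

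*Chil3* encodes the chitinase-like protein YM1, a product of monocytes and of alternatively activated macrophages. It had 4 and 1 reads in WT (values 6.81 and 1.63) and 5 reads in both Rxra-KO libraries (values 8.28 and 5.46). The Rxra-KO libraries fell on either side of the higher WT library. The log2 fold change of 0.77 did not pass the test (95% interval -0.78 to 2.33, limma adjusted p = 0.863). Leaving out WT replicate 2 gave -0.01.

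Quantification of both genes can be affected by near-identical neighbours. The 31-base words of the longest coding transcript of each gene were compared with all GENCODE transcripts of mouse. Of those of *Ly6c2*, 49.2% also occur in *Ly6c1* and 53.8% in any other gene. Of those of *Chil3*, 31.1% also occur in *Chil4* and 44.8% in any other gene. None of the words of *Plac8*, *S100a6*, *Fn1* or *Vcan* occurs in another gene. *Ly6c1*, the LY6C gene known from endothelium and lymphocytes, had more reads than *Ly6c2* in 3 of 4 libraries, with values of 8.33, 19.0, 9.79 and 11.4 in the order WT 1, WT 2, Rxra-KO 1, Rxra-KO 2. The pair summed to 10 and 17 reads for WT against 7 and 11 for Rxra-KO, a difference of -0.57 on the log2 scale that was not called either (limma adjusted p = 0.857). *Chil4* was not analysed here, so no such sum was made for *Chil3*. Of the Ly6 family 11 of 14 genes were measured and 0 were called by limma. The highest, *Ly6e*, had 50.7 and 50.4 in WT against 17.3 and 44.2 in Rxra-KO (-0.84, adjusted p = 0.395), and *Ly6g6e* had 6.81 and 10.3 against 15.8 and 16.4 (0.86, adjusted p = 0.729). Of the chitinase-like family 4 of 7 genes were measured and 0 were called. *Chil3* had the highest Rxra-KO mean of the 4, and *Chil1* (values 5.30, 4.88, 0.753 and 6.46), *Chit1* and *Chia1* were also low.

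*S100a4* and *S100a6* lie near each other in the S100 gene cluster. Their upstream windows, 250 bases up to the transcript start in RefSeq (GRCm38.p6, plus strand), are shown because RXR heterodimers are known to bind repeats of the hexamer AGGTCA, which stands in capitals. The windows are chr3:90603520-90603769 for *S100a4* and chr3:90612644-90612893 for *S100a6*.
S100a4: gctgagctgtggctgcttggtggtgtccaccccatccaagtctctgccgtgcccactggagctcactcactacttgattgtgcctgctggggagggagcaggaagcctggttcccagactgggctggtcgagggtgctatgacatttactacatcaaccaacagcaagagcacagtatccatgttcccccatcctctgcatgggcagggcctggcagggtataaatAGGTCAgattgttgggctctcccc
S100a6: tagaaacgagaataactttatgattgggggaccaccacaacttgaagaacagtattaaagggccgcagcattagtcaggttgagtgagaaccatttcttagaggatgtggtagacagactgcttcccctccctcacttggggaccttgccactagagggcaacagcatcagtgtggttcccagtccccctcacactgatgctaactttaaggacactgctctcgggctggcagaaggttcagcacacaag
The starts lie 9.12 kb apart. The *S100a4* window holds 1 match to AGGTCA on either strand and the *S100a6* window holds 0. Among all RefSeq promoter windows of this length 14% hold a match, as do 14.3% of the genes of the table with a window, so that 1 of 2 windows is a description and not a site.

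*S100a4*, which encodes metastasin, a regulator of non-muscle myosin and cell motility in monocytes and fibroblasts, had values of 93.1 and 89.5 in WT and 181.4 and 183.2 in Rxra-KO. These came from 61 and 82 reads against 120 and 184. Both Rxra-KO libraries were higher than both WT libraries, and each pair of replicates lay within a few units. The mean of 182.3 ± 1.28 for Rxra-KO was 2.0 times the mean of 91.3 ± 2.56 for WT (SD, n = 2). These SDs rest on 2 libraries each and are not a measure of precision at these read counts. The ratio of summed reads scaled to depth was 2.01, with an exact 95% binomial interval of 1.64 to 2.47 that covers counting error only. The log2 fold change was 0.99 (SE 0.27, 95% interval 0.46 to 1.52, limma adjusted p = 0.0165), and the gene moved from rank 1790 and 1935 by level in the WT libraries to 898 and 979 in Rxra-KO. With any 1 of the 4 libraries left out, the log2 fold change was between 0.96 and 1.02, but the adjusted p was 0.0928 to 0.255 and the call was lost. It was also lost with limma without a mean-variance trend (adjusted p = 0.572) and with DESeq2 (adjusted p = 0.11). Of the 31-base words of *S100a4*, 58.1% are shared with *Gm42674*, another annotated gene model. The share of the *S100a4* reads that belong there was not tested.

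*S100a6* encodes calcyclin, which binds annexins and CACYBP. The WT libraries held 0 and 14 reads and the Rxra-KO libraries 3 and 7, that is, values of 0.757 and 15.7 against 5.27 and 7.45. The WT libraries spanned both Rxra-KO libraries. The log2 fold change was 0.42 (95% interval -1.14 to 1.98, limma adjusted p = 0.954), and its sign was set by single libraries, since leaving out WT replicate 1 gave -1.20 and leaving out WT replicate 2 gave 2.05. edgeR on the recovered reads gave -0.47. *S100a4* and *S100a6* therefore had no shared direction that these data can show.

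Of 17 genes of the S100 family 10 were measured, and *S100a4* was the only one called. *S100a13*, which takes part in the release of leaderless proteins, had values of 17.4 and 25.5 in WT and 35.4 and 39.2 in Rxra-KO (0.79, limma adjusted p = 0.543). *S100a10*, the light chain that pairs with annexin A2 at the plasma membrane, had 28.0 and 41.8 against 47.4 and 49.2 (0.48, adjusted p = 0.765). Neither group pair overlapped, yet neither gene passed the test. *S100a1* ranged from 8.33 to 40.2 and *S100a7a* from 8.28 to 26.5 with overlap of the groups, and *S100a14*, *S100a16* and *S100b* had at most 3 reads in every library.

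Among 9 binding partners and receptors of S100 proteins, 2 were called, both higher in Rxra-KO. *Anxa2*, which encodes annexin A2, a partner of S100A10, S100A4 and S100A6, had values of 735.1 and 717.6 in WT and 1949.0 and 1615.4 in Rxra-KO. The groups were well apart, with a ratio of 2.45 (1.29 on the log2 scale, SE 0.21, limma adjusted p = 1.57e-06). *Tlr4*, the endotoxin receptor that also senses S100A8 and S100A9, had 71.9 and 75.4 against 133.2 and 162.4 (ratio 2.01, 0.99, limma adjusted p = 0.0287), and lost its call in the same 6 alternatives as *S100a4*. *Cacybp* had 126.4 and 114.4 against 164.9 and 182.2 (0.52, adjusted p = 0.487), and *Cd36*, which takes up calprotectin-bound lipid as well as oxidised lipoprotein, had 379.3 and 496.3 against 502.1 and 526.9 (0.24, adjusted p = 0.826). *Anxa6* (0.08) and *Bsg* (-0.30) were not called.

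*Fn1* encodes fibronectin, the matrix glycoprotein bound by integrins. Its values were 9949.6 and 8775.6 in WT and 5898.3 and 5938.7 in Rxra-KO, from 6571, 8089, 3917 and 5979 reads. Both Rxra-KO libraries were lower than both WT libraries, and it took 1.01% and 0.854% of the reads in WT against 0.623% and 0.571% in Rxra-KO. The means were 9362.6 ± 830.2 and 5918.5 ± 28.5 (SD, n = 2), a WT to Rxra-KO ratio of 1.58. At a log2 fold change of -0.66 (SE 0.23, 95% interval -1.11 to -0.20) the limma adjusted p was 0.140, and *Fn1* was not called. The call differed between settings. Of the 15 alternatives 5 called *Fn1*, among them those with a filter at a value of 10 in 2 libraries (adjusted p = 0.0195), and with voom (adjusted p = 7.21e-08), edgeR (adjusted p = 0.0478) and DESeq2 (adjusted p = 0.00845) on recovered reads, these 4 at -0.68 to -0.65.

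*Vcan* encodes versican, a hyaluronan-binding proteoglycan that is abundant in classical monocytes. Its values were 43.2 and 28.7 in WT and 44.4 and 32.3 in Rxra-KO, from 26 to 32 reads per library. The groups interleaved. The log2 fold change was 0.10 with a 95% interval of -0.66 to 0.87, that is, a fold between 0.631 and 1.82, and the limma adjusted p was 0.981.

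**Figure D2:**
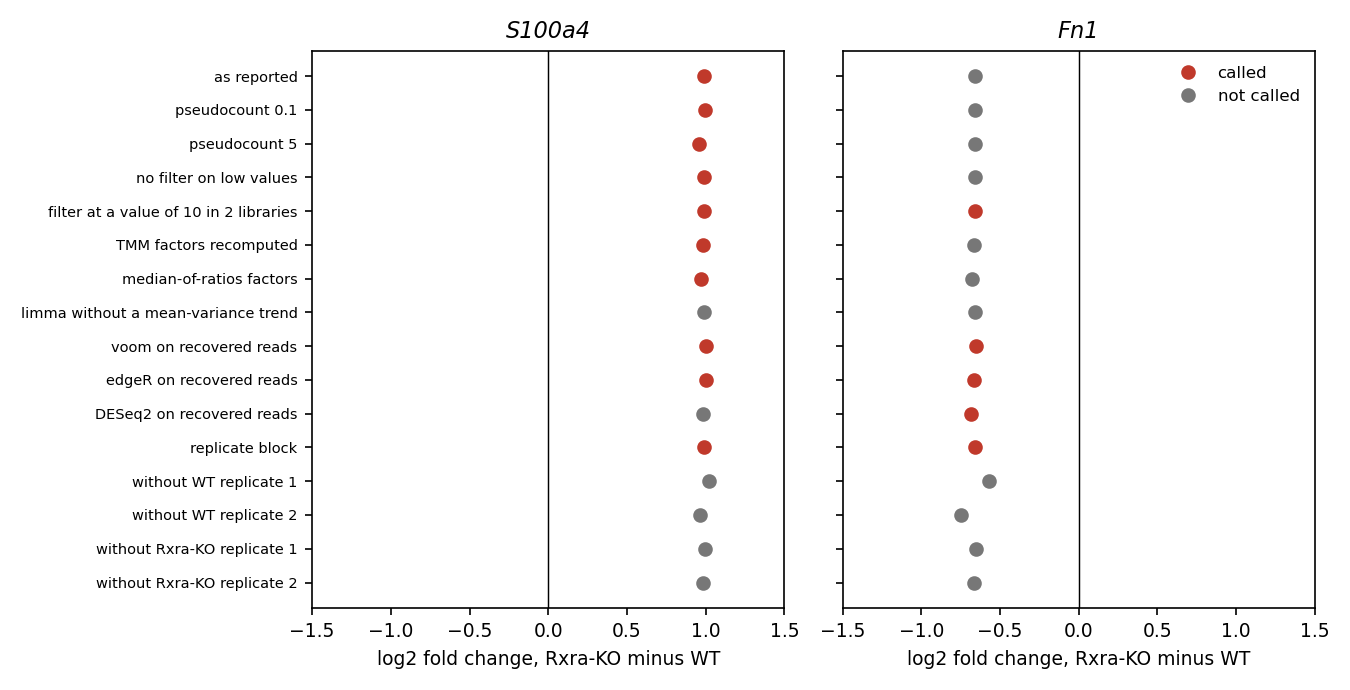
Log2 fold change, Rxra-KO minus WT, of *S100a4* (left) and *Fn1* (right) as reported and under 15 alternatives, with 1 point per setting, red where called and grey where not. *S100a4* stays between 0.96 and 1.02 and *Fn1* between -0.75 and -0.57, while *S100a4* is called in 9 and *Fn1* in 5 of the alternatives.

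Per kilobase of the longest coding transcript, the mean level of *Fn1* was 1126.0 in WT and 711.8 in Rxra-KO, ahead of *S100a4* at 183.3 and 366.1. The level of *Fn1* per kilobase was 6.14 times that of *S100a4* in WT and 1.94 times in Rxra-KO. Next came *S100a6* at 11.3 and 8.7, which in WT rests on a single library. *Ly6c2* (5.4 and 1.68), *Vcan* (2.89 and 3.09), *Chil3* (2.74 and 4.47) and *Plac8* (1.59 and 1.94) followed, and the order of these 4 is not resolved at this depth, nor is that of *S100a6* among them.

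Of 11 receptors for fibronectin and versican, 1 was called. *Itgb7*, the integrin chain that pairs with α4, was lower in Rxra-KO, with values of 680.6 and 1652.7 in WT and 210.0 and 345.1 in Rxra-KO (-1.97, SE 0.23, limma adjusted p = 1.08e-12), although DESeq2 did not call it. Its WT replicates differed, and leaving out WT replicate 1 or WT replicate 2 moved it to -2.61 or -1.33. *Itgb1*, the common β-chain of fibronectin receptors, had 339.9 and 522.3 against 256.7 and 239.9 (-0.76, adjusted p = 0.0541). It was called in 5 of 15 alternatives, and leaving out WT replicate 1 gave -1.07 (limma adjusted p = 0.0264), against -0.45 when WT replicate 2 was left out. The other abundant receptors were *Itga4* (-0.37), the hyaluronan and matrix receptor *Cd44* (0.13) and *Selplg* (-0.72), none of which was called. Of 14 genes for hyaluronan synthesis, link proteins and versican cleavage, 13 were measured and 0 were called by limma. *Ncan*, *Adamts9* and *Adamts15* had mean values under 30 in both groups, and *Adamts1*, a versican-cleaving protease, had 3.79 and 5.97 against 21.8 and 12.4 (1.60, adjusted p = 0.317).

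A list of 9 further genes of classical monocytes, all measured, was set beside the markers, and 3 were called, 2 higher and 1 lower. *Ccr2*, the chemokine receptor that brings monocytes out of bone marrow, had values of 76.5 and 25.5 in WT and 375.7 and 655.0 in Rxra-KO (3.46, SE 0.27, limma adjusted p = 5.64e-25). *F13a1*, the coagulation factor XIII A chain of monocytes and macrophages, had 282.4 and 49.4 against 2442.9 and 1621.4 (4.06, SE 0.25, limma adjusted p = 4.67e-36). Both rose, from WT levels that differed between the replicates. *Ccr2* was at 2.68 without WT replicate 2 and at 4.23 without WT replicate 1, and *F13a1*, which DESeq2 did not call, at 2.81 and 5.31. *Clec4e*, the Mincle lectin, was lower, with 451.9 and 461.6 against 217.6 and 266.7 (-0.92, limma adjusted p = 0.00647), a call lost without WT replicate 1, WT replicate 2 or Rxra-KO replicate 1. *Hp* (-0.39), *Mgst1* (-0.69), *Gsr* (-1.21) and *Ifitm6* (0.21) were not called. The median over the 9 genes was -0.39. Without *Ccr2* and *F13a1* the remaining 7 genes summed to 981.9 and 903.1 in WT against 511.2 and 677.8 in Rxra-KO. The 2 genes left out are those called higher in these data, so this remainder was shaped by the outcome. Its means were 942.5 in WT and 594.5 in Rxra-KO. *Clec4e* alone went from a mean of 456.8 to 242.1, and *Hp* from 326.8 to 247.8. Of these 7, 2 had a positive log2 fold change. The interval of *Vcan* (-0.66 to 0.87) lies below the lower bounds of *Ccr2* (2.92) and *F13a1* (3.56), as does the upper bound of *S100a4* (1.52). That of *Ly6c2* (-2.36 to 0.80) rests on 5 reads in WT and 1 in Rxra-KO, where it is at the floor, and is not set against them. The difference between genes was not itself tested.

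**Figure D3:**
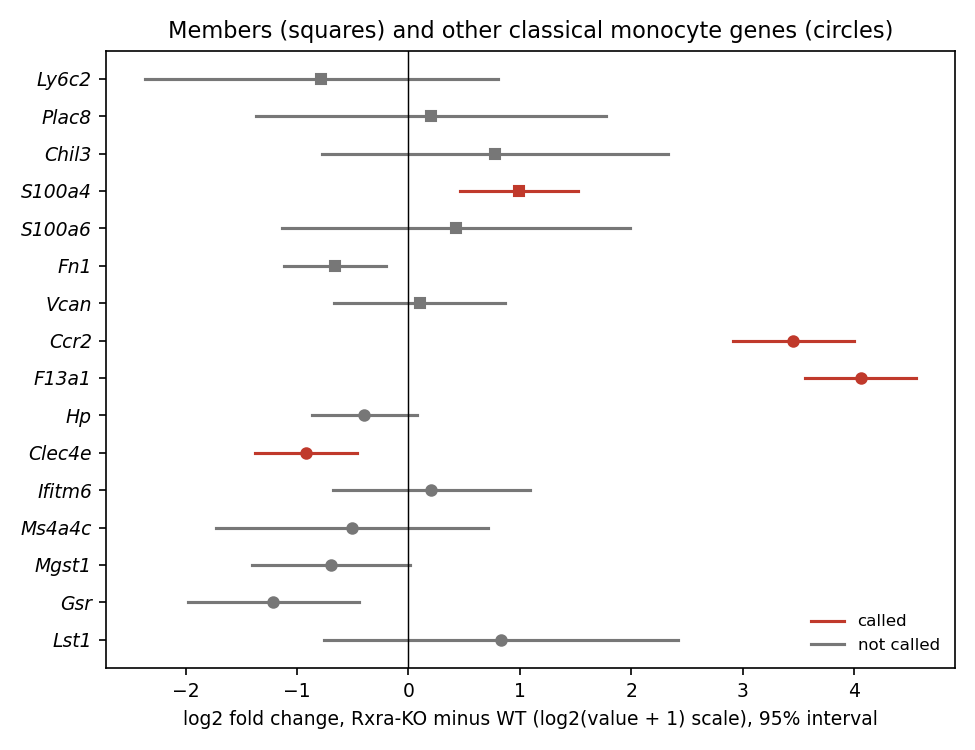
Log2 fold change, Rxra-KO minus WT, with its 95% interval for the 7 markers (squares) and 9 other classical monocyte genes (circles), red where called and grey where not. *Ccr2* and *F13a1* lie far to the right at 3.46 and 4.06, *S100a4* at 0.99, and the intervals of the markers with few reads span 0 widely.

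Of 8 genes of non-classical monocytes 7 were measured, and 0 were called by limma, with a median of 0.29. *Spn* (0.29), *Eno3* (0.09), *Ace* (-0.04) and *Cx3cr1* (-0.30) were the most abundant.

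Markers of other cell types were counted in the same way. The double sort was for F4/80+ MHCII-negative CD102+ cells, and which other cells remained after it was not tested. The study names 7 genes of small peritoneal macrophages, *Ccr2* among them, and all 7 were higher in Rxra-KO, at log2 fold changes of 1.54 to 7.17. They summed to 365.6 and 109.0 for WT against 4329.4 and 5805.6 for Rxra-KO, and *S100a4* was higher in the same libraries. The study chose that list on these libraries, so it is not independent evidence of a direction, and its part in the *S100a4* result was not tested. The summed level of 11 neutrophil genes ranged from 262.7 to 277.2 in WT and 216.1 to 274.6 in Rxra-KO, of which 0 were called. *Csf3r* and *Cxcr2* made up most of it, and *Ltf* and *Lcn2* had at most 3 reads per library. Fibroblast genes, whose list bears on *Fn1*, *Vcan* and *S100a4*, summed to 57.5 to 77.2 over 6 genes in WT and 52.6 to 61.7 in Rxra-KO. None of these was called, *Col1a1* was at -0.77 and *Col1a2* at 0.24, and *Col3a1* had at most 3 reads. The 8 dendritic cell genes summed to 59.0 and 75.9 in WT and 108.4 and 135.1 in Rxra-KO, with *Cd209a* higher (values 22.0 and 14.6 against 65.5 and 80.0, limma adjusted p = 1.28e-04). *Cd209a* alone went from a mean of 18.3 to 72.7, against 67.5 to 121.7 for the whole list, and the other 7 genes were uncalled in both directions, from *Flt3* at 1.18 and *Zbtb46* at 0.35 to *Dpp4* at -0.08, *Clec9a* at -0.85 and *Itgax* at -0.97. The call of *Cd209a* was lost without Rxra-KO replicate 2 (1.81). Among T cell genes (5 of 8 measured) *Cd2* was higher (0 and 0 against 11 and 6 reads, limma adjusted p = 0.0277). Its call was lost without either WT library (2.92 and 2.73), and without either Rxra-KO library the filter on low values removed it. *Cd3e* at 0.69, *Cd3d* at 0.09, *Thy1* at -0.05 and *Lck* at -2.27 (7 and 11 reads against 2 and 0) were not called. Among eosinophil genes (7 of 8) *Alox15*, which LPMs also express, was lower (-1.61, from a mean of 483.1 to 159.5, within list sums of 590.3 and 257.0), beside *Siglec5* at -0.08 and *Epx* at -0.85. Mast cell (7 of 8 measured), B cell (5 of 8), mesothelial (6 of 8) and erythroid (2 of 6) genes had 0 called.

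**Figure D4:**
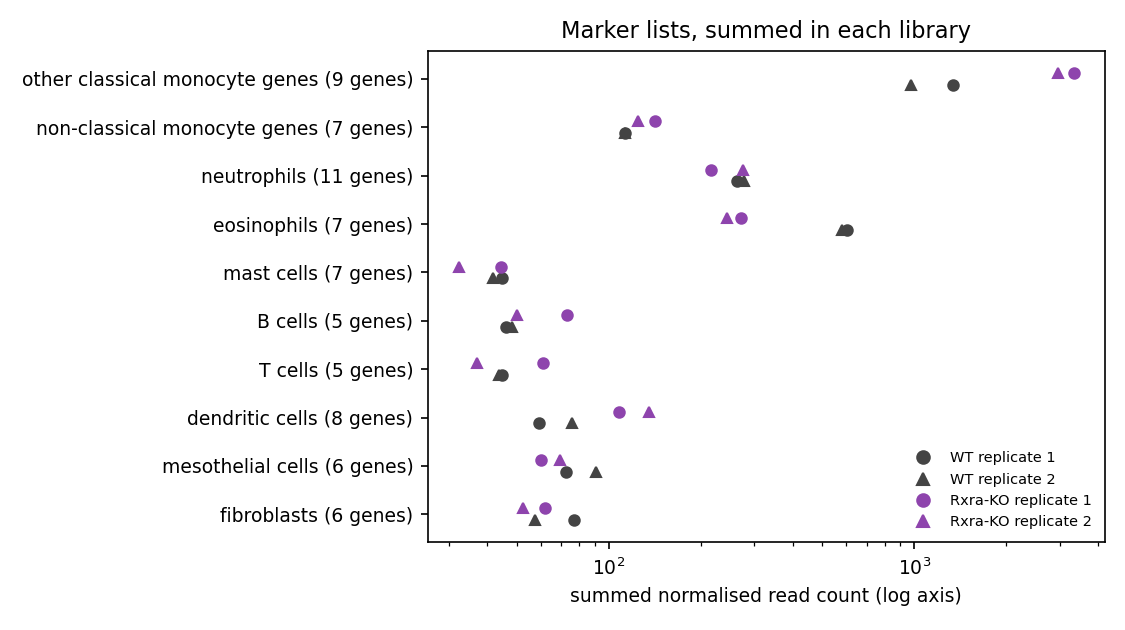
Summed normalised read count (log axis) of 10 marker lists in each library, with the number of measured genes in parentheses, 1 point per library coloured by group and shaped by replicate. The other classical monocyte genes are higher in both Rxra-KO libraries, carried by *Ccr2* and *F13a1*. Without these 2 genes, which were left out because they were called higher, the sum has means of 942.5 in WT and 594.5 in Rxra-KO (not drawn). *Clec4e* alone accounts for 456.8 and 242.1 of these means. The dendritic cell genes, carried by *Cd209a*, are higher in both Rxra-KO libraries, and the eosinophil genes, carried by *Alox15*, are lower. The neutrophil and fibroblast sums overlap between groups.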

How the data were processed

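RNA of sorted LPMs was sequenced by the authors from SMART-Seq v4 libraries, which carry no molecular identifiers, and, per the methods, quantified with Kallisto (0.43.0), summarised with tximport and TMM-scaled with limma. The methods and labels name a human reference, GRCh38, although the table carries mouse symbols. The deposited values are a normalised read signal with 1 column per library. Whole reads were recovered from the deposited signal, and 100% of values lay within 0.01 of a whole number of reads. Samples that did not cluster with their group were excluded by the study. The members and gene lists were chosen with earlier results of these data known. A gene of the classical monocyte list is not reported here and was left out of its counts and sums.

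Values were fitted on the log2(value + 1) scale with limma (3.58.1, R 4.3.3), with empirical Bayes moderation and a mean-variance trend, on all 4 libraries without covariates. All p-values are two-sided and were adjusted by Benjamini-Hochberg over the 18364 genes. The filter (a value of 1 or more in 2 or more libraries) removed 0 genes. For 2 against 2 libraries the smallest two-sided p of an exact permutation test is 0.333, so the p-values lean on limma's pooled spread. The labels do not say that libraries came from separate mice, so the p-values cannot be taken to measure a spread between mice. Excluding samples that did not cluster with their group can lower the spread within groups, and its effect on the p-values was not tested. A group with at most 3 reads in each library was taken to be at the floor, and count intervals cover counting error only. edgeR (4.0.16), DESeq2 (1.42.0) and voom were run on recovered reads as alternatives. Named genes were all members, *Rxra* and the sort markers. From each related list, every called gene and up to 4 of its most abundant uncalled genes were named. Of other cell types, called genes and the first 2 markers were named, except mast, B, mesothelial and erythroid cells, which were given as counts. Further low-level genes, named to show overlap or detection, were chosen after their values were seen. Titles number the replicates 1 and 2, the table columns 2 and 3, and the titles were followed. The fits were also run on simulated data with a single fixed spread, in which only genes above a minimum of expected reads were changed. That run does not cover the markers with few reads.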

Additional observations from a re-analysis of the deposited data

How the results depend on the processing

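Over 15 alternatives, 99 values were recomputed for the 7 markers, of which 82 kept direction and side of the threshold. This count is no measure of robustness, since markers other than *S100a4* and *Fn1* were far from the threshold in every setting. *S100a4* kept its call in 9 of the 15 alternatives, and *Fn1*, uncalled as reported, was called in 5. No gene was called without the mean-variance trend, and the single call among the markers was lost with any 1 library left out, whereas those of *Ccr2*, *F13a1*, *Anxa2* and *Itgb7* held. Over all genes, 421 were called, against 0 with limma without a mean-variance trend (1579 at an unadjusted p under 0.05), 235 with DESeq2, and 167 to 381 with 1 library left out, the lowest without Rxra-KO replicate 1 and 240 without WT replicate 2. Of the markers, 1 was called, against 2 with a filter at 10, voom or edgeR, 0 without the trend (1 at an unadjusted p under 0.05, by limma), 0 at an adjusted p under 0.01, and 0 to 0 with 1 library left out (1 to 3 at an unadjusted p under 0.05). DESeq2 called 1, *Fn1* and not *S100a4*. Of 70 related genes, 6 were called, against 0 without the trend (9 at an unadjusted p under 0.05), 3 with DESeq2 and 4 to 5 with 1 library left out.

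*S100a4* gave 0.99 without the trend and 0.98 with DESeq2, uncalled, and 0.96 to 1.02 with 1 library left out. *Fn1* gave -0.66 with the filter at 10 and with edgeR, -0.65 with voom and -0.68 with DESeq2, all called, and -0.75 to -0.57 with 1 library left out. *S100a6* reversed to -0.47 with edgeR and -0.45 with DESeq2 and ran from -1.20 to 2.05 with 1 library left out. *Chil3* ran from -0.013 to 1.56 and *Vcan* from -0.18 to 0.39 likewise, *Chil3* reversing without WT replicate 2 and *Vcan* without WT replicate 2 (-0.18) or Rxra-KO replicate 1 (-0.12). The cause was not tested. A filter at 10 left out the low markers. The sum of *Chil3* and *Chil4* was not run.

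Deviations of libraries with the same replicate number correlated at 0.035, and the numbers were not taken to pair the samples. This single correlation over all genes is too little to tell whether they were paired. Depth went with replicate number, at 652542 (WT) and 629030 (Rxra-KO) recovered reads for replicate 1 and 947372 and 1047021 for replicate 2. With a replicate block 540 genes were called, 2 of them markers, *S100a4* at 0.99 (limma adjusted p = 0.00353) and *Fn1* at -0.66 (adjusted p = 0.000569). At 26 to 32 reads per library, the interval of *Vcan* allows a fold of 0.631 to 1.82, and *Ly6c2*, *Plac8*, *Chil3* and *S100a6* allow no direction.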
